A study of Bos taurus with 23 samples.

Results

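Among the 23 heifers sequenced, 8 gave libraries of peripheral white blood cells (PWBC) with an alike overall profile in spite of coming from 2 experimental stations, and these 8 were compared between the stations. They were 3 of the 12 libraries of station B and 5 of the 11 libraries of station A. All heifers were pubertal Angus and Simmental crosses with synchronized estrus, bled from the jugular vein at artificial insemination (AI), and each heifer gave 1 library of stranded mRNA. From station B the comparison held the non-pregnant heifers SL253804 and SL253811, which did not conceive in the breeding season, and SL253808, which became pregnant to AI (AI-pregnant). From station A it held the AI-pregnant heifers SL220764, SL220766 and SL220775 and the heifers SL220768 and SL220769, which became pregnant later by natural breeding (NB-pregnant). Bulls were with the heifers for a longer season at station A than at station B. The labels give no age, date of sampling or sequencing run per heifer. The study gives group averages for all sequenced heifers, in which age and weaning weight were higher in station B than in station A. The study also lists the aligned share of read pairs per library. That share was higher in every compared library of station B than in any compared library of station A. The part of these differences in the station comparison was not tested. The library numbers form a separate series in each station, so station cannot be told apart from anything that was done to one series and not to the other, and outcome is mixed unequally between the stations.

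PWBC are a mixture of granulocytes, monocytes, B cells, T cells and natural killer cells, with residual platelets and immature red cells. The profile of such a sample therefore depends on which cells the blood held at sampling as well as on what each cell transcribed, and in these bulk libraries fewer cells of a type and less RNA per cell cannot be told apart. Red cells had been lysed before RNA extraction. The study fitted each station apart, and the comparison here asks how far heifers of the 2 stations differ once their library profiles are alike.

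The libraries were chosen from their counts, by 2 measures that are given here as a description. In station B the measure was the share of counts on genes that the authors did not retain for that station, which was 1.76% in SL253804, 2.27% in SL253808 and 3.18% in SL253811, with a limit of 1%. The other 9 libraries of station B had 0.106% to 0.167%, far outside the limit. In station A the measure was the share of counts taken by the 10 largest genes, which ran from 2.88% in SL220769 to 4.08% in SL220768 in the 5 chosen libraries, with a limit of 5%. The nearest library outside it, SL220772, had 7.12%. SL220765, at 3.94%, was inside the limit but had been set aside by name as intermediate. Across genes, its median correlation was 0.942 with the 5 chosen libraries of station A and 0.940 with the other 5, whereas the 5 chosen libraries had 0.979 to 0.983 among themselves.

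**Figure D1:**
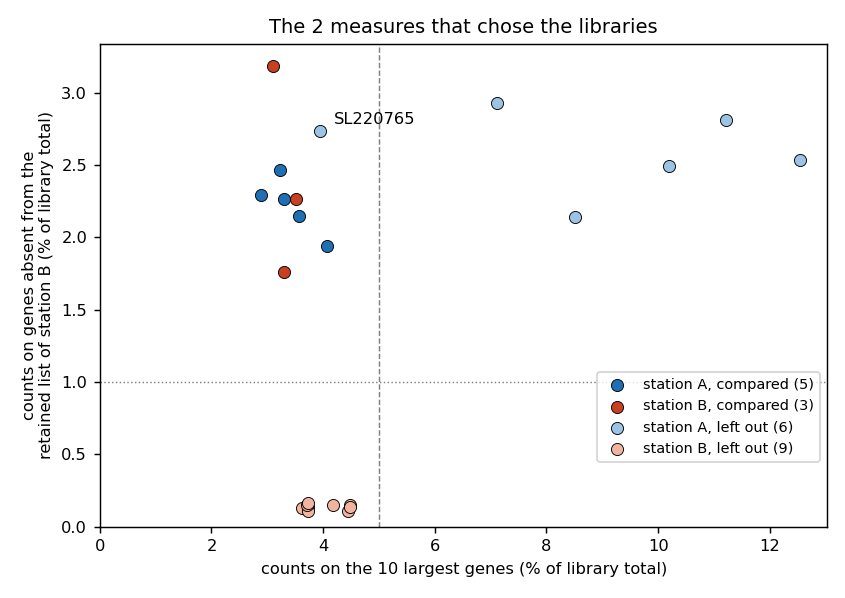
Share of counts on the 10 largest genes (x axis, percent of the library total) against the share on genes absent from the retained list of station B (y axis, percent) for all 23 libraries, 1 point per heifer, with dashed and dotted lines at the limits of 5% and 1%. The 8 compared libraries (dark points) lie together at 2.88% to 4.08% on the x axis and 1.76% to 3.18% on the y axis, while 9 libraries of station B lie near 0 on the y axis.

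The counted read pairs were 8487350 to 20434401 per library in the 3 of station B and 6832237 to 20053283 in the 5 of station A. Levels are given in CPM, counts scaled to the library total, so a gene near 1 CPM is known from few read pairs and carries a large counting error. Of 24616 genes, 12651 had more than 1 CPM in 3 or more of the 8 libraries and were tested. The rule itself had used 2011 of these genes, since they were absent from the retained list of station B or among the 10 largest genes of a station A library, and those are described without a test. The files name genes by Ensembl identifiers, and none of them could be matched to a symbol in the reference table, so symbols are given only for the 24 genes that the study named. The marker lists of blood cell types and the pathway lists could not be applied for the same reason.

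The 8 profiles were close to each other. Pearson's r of log2 CPM across the 12651 genes was 0.961 to 0.976 in the 15 pairs between stations, 0.972 to 0.984 in the 10 pairs within station A and 0.958 to 0.970 in the 3 pairs within station B. The median was 0.969 between stations, 0.977 within station A and 0.964 within station B. Pairs between stations were thus near the 3 pairs of station B and had a lower median than station A. The libraries had been chosen from their counts, and the genes include the 2011 that the rule used, so high correlations were built in. They are a description across genes, which are not independent replicates. The first principal component, with 23.8% of the variance, set SL253811 apart at 46.7 and had SL253804 at the other end, at -23.3. On the second component (19.5%) the 3 libraries of station B lay at 2.43 to 36.7 and the 5 of station A at -19.1 to -3.89, without overlap.

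Few genes passed the test between the stations. In the fit to all 8 heifers 7 of the 12651 genes (0.0553%) passed the quasi-likelihood test of edgeR (adjusted p under 0.05), 3 of them higher in station B (0.0237%) and 4 higher in station A (0.0316%). All 7 were among the 10640 genes that the rule had not used (0.0658% of them). Of those higher in station B, only ENSBTAG00000032902 would have passed the filter without heifers of station B, as given below. At an unadjusted p under 0.05 there were 841 genes (6.65%), 369 higher in station B (2.92%) and 472 higher in station A (3.73%). These include genes that the rule had used. Among the 10640 that it had not used there were 676 (6.35%). The median log2 fold change of station B over station A (log2FC) over all tested genes was 0.02, and the median of its absolute value was 0.14. Within stations, the median SD of log2 CPM between single heifers was 0.30 in the 3 of station B and 0.18 in the 5 of station A. The SD was larger in station B for 71.3% of the genes.

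A fitted difference of at least 2-fold was found for 235 genes (1.86%), and in 87 of these (0.688%) the CPM of the stations did not overlap. Over all tested genes the stations did not overlap in 524 (4.14%), with 158 higher in station B (1.25%) and 366 higher in station A (2.89%). These counts, and those of 2-fold differences, include genes that the rule had used. Among the 10640 genes that it had not used, the stations did not overlap in 452 (4.25%). No gene had more than 1 CPM in every library of one station and at most 3 counts over all libraries of the other, nor any with under 0.1 CPM in each library of the other. Within these limits no gene was seen in the heifers of one station alone. The genes counted included those that the rule had used to choose the libraries, so the count is a description.

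**Figure D2:**
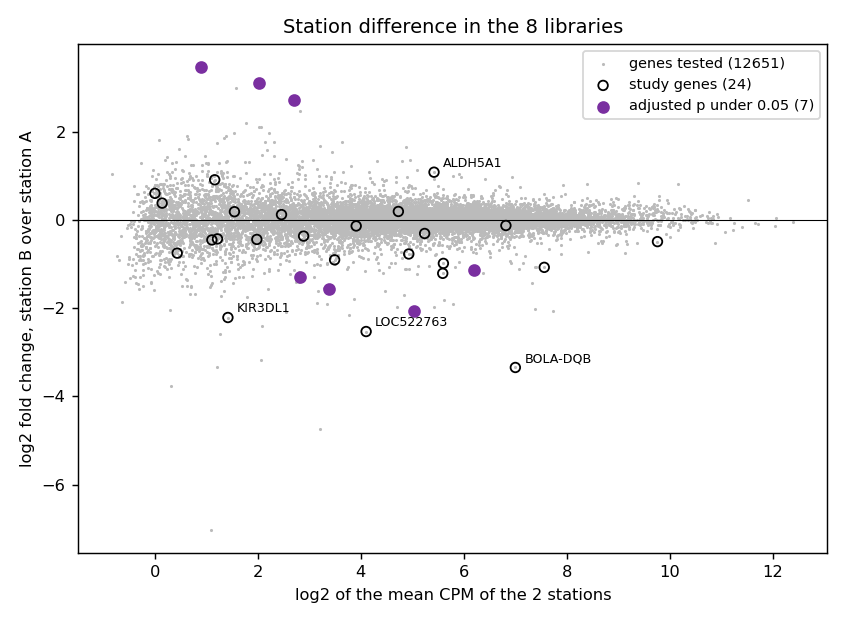
Log2FC of station B over station A (y axis) against the log2 of the mean CPM of the stations (x axis) for the 12651 genes tested (gray), the 24 genes named by the study (open circles) and the 7 genes that passed the test (purple). Most genes lie close to 0, with a median absolute change of 0.14, and the 7 genes lie between -2.06 and 3.46.

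The gene with the firmest difference was ENSBTAG00000032902. Its level was 10.3 CPM in SL253804, 9.31 CPM in SL253808 and 14.2 CPM in SL253811. In station A it was 1.90, 1.48, 1.61, 1.80 and 1.79 CPM in SL220764, SL220766, SL220768, SL220769 and SL220775. Every heifer of station B was thus far above every heifer of station A, and the 5 heifers of station A were nearly equal in spite of their different outcomes. The log2FC was 2.73 (standard error, SE, 0.22, 6.63-fold, adjusted p 0.000988 by edgeR). It passed in all 21 alternative fits, including each fit that left out 1 heifer.

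ENSBTAG00000004948 had 11.5, 3.06 and 7.39 CPM in SL253804, SL253808 and SL253811. The 5 heifers of station A had 0.439 to 1.14 CPM, with a median of 0.798, so the stations did not overlap although the level in station B varied widely. It was over 1 CPM in 2 of the 5 heifers of station A, so heifers of station B were needed for it to enter the test. Its call is given with that limit. Its log2FC was 3.103 (SE 0.40, 8.59-fold, adjusted p 0.0258 by edgeR). Another gene higher in station B was near the filter, at 2.69, 1.89 and 5.63 CPM there and 0.206 to 0.439 CPM in station A. Its log2FC was 3.46 (SE 0.43, adjusted p 0.0258 by edgeR), and in station A it rested on 2 to 8 read pairs per library. It was over 1 CPM in none of the 5 heifers of station A, so it entered the test only through the 3 heifers of station B in which it was high and had to differ, and its call is given as a description.

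Of the 4 genes higher in station A, ENSBTAG00000045854 had the largest difference. It was 49.7, 54.7, 43.3, 52.5 and 64.7 CPM in SL220764, SL220766, SL220768, SL220769 and SL220775, against 19.1, 7.30 and 10.9 CPM in SL253804, SL253808 and SL253811. The lowest heifer of station A stood well above the highest of station B. Of the NB-pregnant heifers, SL220769 lay among the AI-pregnant ones and SL220768 was the lowest of station A. The log2FC was -2.06 (SE 0.26, adjusted p 0.0258 by edgeR), which is 4.18-fold higher in station A.

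ENSBTAG00000035379 had 14.3, 15.2, 16.4, 16.3 and 16.0 CPM in the same 5 heifers of station A, and 6.53, 5.54 and 3.67 CPM in SL253804, SL253808 and SL253811. Its level was again nearly constant within station A, and its log2FC was -1.57 (SE 0.21, 2.96-fold, adjusted p 0.0273 by edgeR). The other 2 genes were higher in station A by 2.19-fold, with 100.4 ± 10.6 CPM (SD, n = 5) there and 45.3 ± 4.63 CPM (SD, n = 3) in station B, and by 2.46-fold, with 10.1 ± 0.586 CPM (SD, n = 5) there and 4.04 ± 0.551 CPM (SD, n = 3) in station B. Their adjusted p was 0.0201 and 0.0395 by edgeR.

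The size of the list depended on single heifers. Without SL253804 the test called 12 of the genes that the rule had not used, 7 higher in station B and 5 higher in station A. Of the 7 genes called with all 8 heifers, 5 were among them. With genes that the rule had used the count was 19, 14 of them higher in station B. Without SL253808, SL253811 or SL220764 it called 2 genes each, and without SL220766 or SL220768 it called 1 gene, ENSBTAG00000032902. Without SL220769 it called 4 genes and without SL220775 it called 5, or 6 with genes that the rule had used. Of the 7 genes, 2 were among those called without SL220769, 2 without SL220775 and 1 without SL253811. ENSBTAG00000004948 passed without SL253804 (adjusted p 0.0452 by edgeR) or SL253808 (0.00783), and leaving out any of the other 6 heifers gave adjusted p values of 0.0523 to 0.109. ENSBTAG00000045854 and ENSBTAG00000035379 passed without SL253804, and leaving out any of the other 7 heifers gave 0.0501 to 0.115 for the first and 0.0601 to 0.135 for the second. Of the other 2 genes higher in station A, the one with the 2.19-fold difference passed without SL253804, SL220764, SL220769 or SL220775 and had adjusted p values of 0.0601 to 0.0961 by edgeR without SL253808, SL253811, SL220766 or SL220768. The one with the 2.46-fold difference passed in 0 of 8 when single heifers were left out (adjusted p 0.0557 to 0.173 by edgeR), and had 0.517 in the fit over all 23 libraries. The gene near the filter passed in 0 of 5 when single heifers of station A were left out (0.0520 to 0.105), and without any 1 heifer of station B it no longer passed the filter. The sign of all 7 genes was the same in every alternative fit in which they were tested.

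DESeq2 and the rule of the study gave longer lists. DESeq2 called 84 genes, 27 of them higher in station B and 57 higher in station A. The rule that the study used within stations called 304 genes. It asks edgeR's likelihood ratio test and DESeq2 each for an unadjusted P of at most 0.01. Among genes on which the libraries had not been chosen, DESeq2 called 71, with 20 higher in station B and 51 higher in station A. The rule of the study called 246 of such genes. The 7 genes were in the lists of DESeq2 and of the rule of the study. The list of limma-voom was no longer, with 7 genes, and 6 of them were among the 7. With AI pregnancy as a covariate 4 genes passed, and 3 of the 7 were among them, ENSBTAG00000032902 (adjusted p 0.00724 by edgeR), the gene near the filter and the gene with the 2.19-fold difference (both 0.0481). The call was lost for ENSBTAG00000004948 (0.131), ENSBTAG00000035379 (0.0883), ENSBTAG00000045854 (0.0790) and the gene with the 2.46-fold difference (0.125), with log2FC of 2.92, -1.57, -2.12 and -1.31. The calls of these 4 genes thus did not hold in that fit. Outcome was unequal between the stations, and why the calls were lost was not tested.

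The same genes were then read in the 15 heifers that the rule had left out, 9 of station B and 6 of station A, which share no library with the 8. In those heifers 10974 of 12802 genes (85.7%) passed the test between stations, 4894 higher in station B (38.2%) and 6080 higher in station A (47.5%). The library profile differs between the stations there as well, and its part in the result was not tested. Of the 7 genes, 6 had the same sign in the 15 heifers and 5 passed there in the same direction, which is to be read against that background of 85.7%.

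ENSBTAG00000032902 was above the highest of the 5 compared heifers of station A in 9 of the 9 left-out heifers of station B, at 2.98 to 15.8 CPM. The 6 left-out heifers of station A had 0.674 to 5.43 CPM, all of them below the lowest compared heifer of station B. The left-out heifers of the stations overlapped with each other. Its log2FC in the left-out heifers was 0.95 (SE 0.43, adjusted p 0.0424 by edgeR). For ENSBTAG00000035379 the left-out heifers had 5.89 to 13.3 CPM in station B and 9.30 to 21.4 CPM in station A, with a log2FC of -0.91 (SE 0.20). ENSBTAG00000045854 moved within station A, where 5 of the 6 left-out heifers had 5.47 to 14.4 CPM, far under the 43.3 to 64.7 CPM of the compared heifers. SL220765 was between them at 34.0 CPM. The left-out heifers of station B had 1.43 to 7.71 CPM of this gene, and its log2FC there was -1.95 (SE 0.37, adjusted p 5.27e-05 by edgeR).

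ENSBTAG00000004948 did not pass in the left-out heifers, with 0.179 to 10.2 CPM in station B and 0.164 to 2.69 CPM in station A (log2FC 1.09, SE 0.66, adjusted p 0.129 by edgeR). The gene near the filter had a fitted log2FC of the opposite sign there, -0.24 (SE 0.69, adjusted p 0.742 by edgeR). Its median level was still higher in station B, at 0.897 CPM, than in station A, at 0.192 CPM. In station A it reached 3.29 CPM in SL220765. The 2 genes with the smaller differences had a larger fitted difference in the left-out heifers, with log2FC values of -2.14 (SE 0.17) and -2.36 (SE 0.28).

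**Figure D3:**
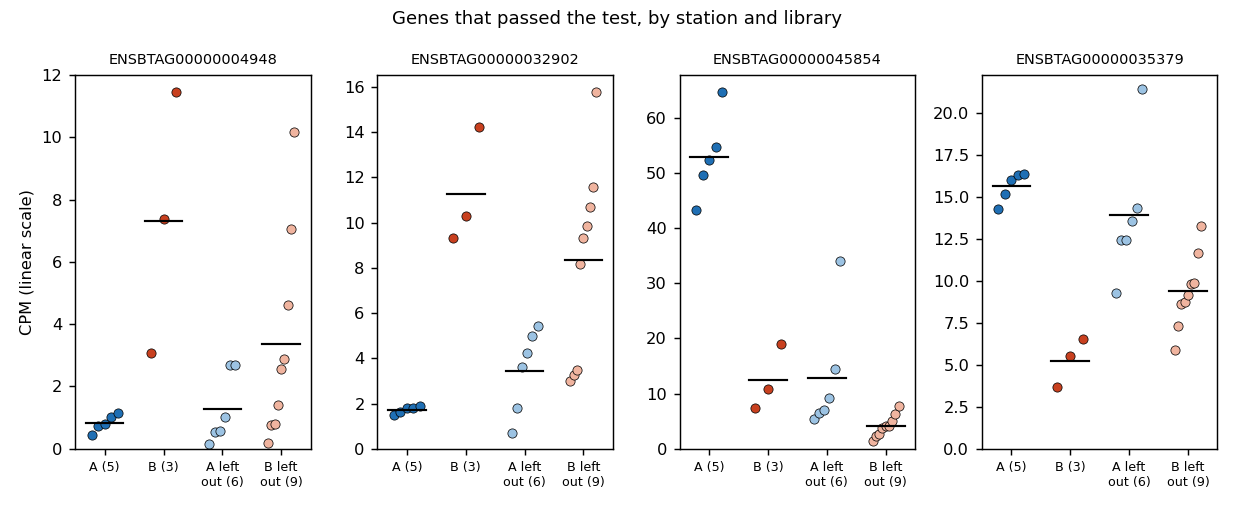
CPM (y axis, linear scale from 0, 1 scale per panel) of the 4 identified genes in each heifer, by station and by whether the heifer was compared or left out, with bars at the group means. ENSBTAG00000032902 has all 3 compared heifers of station B at 9.31 CPM or more and all 5 of station A at 1.90 CPM or less, and ENSBTAG00000045854 is high in the compared heifers of station A.

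Gene lengths, recovered from the counts and FPKM for 12321 of the tested genes, had a median of 1958 bases. The 4 genes higher in station A were 587, 773, 784 and 907 bases long, below the lower quartile of 1248 bases, and the 3 higher in station B were 2061, 2185 and 2217 bases. The wider sets at an unadjusted p under 0.05 did not have this order, with medians of 1216 bases for genes higher in station B and 1982 bases for genes higher in station A.

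The 24 genes that the study named as differing with pregnancy outcome all passed the filter on low counts. They had been chosen by the study within each station, from all of its heifers, so the station comparison is a description of genes chosen on these samples. KIR3DL1 and TPPP were used by the rule and get no test. None of the other 22 passed the test between stations (lowest adjusted p 0.316 by edgeR), and 4 had an unadjusted p under 0.05 (18.2%, against 6.35% of all genes that the rule did not use). DESeq2 called 1 of the 22, ALDH5A1. The stations did not overlap in 0 of the 22, against 4.25% of all genes that the rule did not use. Fitted values were lower in station B for 16 and higher for 6, with a median log2FC of -0.44 beside 0.01 for all genes that the rule did not use.

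Among the innate defence genes, LYZ (ENSBTAG00000026779), lysozyme, which cleaves bacterial cell walls, had 1031, 657 and 455 CPM in SL253804, SL253808 and SL253811. In station A it had 1087, 1165, 918, 795 and 1116 CPM, so only SL253804 lay within the range of station A (log2FC -0.49, SE 0.24, adjusted p 0.750 by edgeR). Per kilobase of gene, LYZ at 638 CPM and TAC3 at 682 CPM had the highest mean levels of the 24 genes in station A. ANG (ENSBTAG00000045492), a secreted ribonuclease, had 8.48 to 20.0 CPM in station B and 9.08 to 22.1 CPM in station A, nearly the same range. DMBT1 (ENSBTAG00000022715), a secreted receptor that binds bacteria, was at most 2.59 CPM in 7 of the 8 heifers and 8.20 CPM in the NB-pregnant heifer SL220768.

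Of the immune receptors, FCER1A (ENSBTAG00000012887), the IgE-binding chain of the receptor of basophils and mast cells, had 5.61, 6.48 and 11.01 CPM in station B and 18.1, 13.7, 10.8, 10.02 and 21.2 CPM in station A. Only the highest heifer of station B reached the range of station A, and the log2FC of -0.90 (SE 0.31) had an unadjusted p of 0.0131 and an adjusted p of 0.551 by edgeR. SIGLEC14 (ENSBTAG00000035868), a sialic acid receptor of myeloid cells, was 3.23 to 10.5 CPM in station B and 4.84 to 12.8 CPM in station A, ranges that overlapped in part.

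KIR3DL1 (ENSBTAG00000047971), which encodes an inhibitory receptor of natural killer cells, was 0.615, 1.06 and 1.13 CPM in station B and 3.68, 5.94, 1.46, 1.89 and 9.07 CPM in station A. It was the 1 gene of the 24 (4.17%) whose stations did not overlap, beside 4.14% of all genes tested, and it belongs to the genes on which the libraries were chosen. BOLA-DQB (ENSBTAG00000021077), the beta chain of a class II molecule that presents peptides to helper T cells, had 33.3, 31.3 and 4.55 CPM in station B. In station A it had 492, 510, 87.4, 2.34 and 70.9 CPM, so both the highest and the lowest of the 8 heifers were in station A. Its log2FC, -3.35, therefore had a SE of 1.59 and an adjusted p of 0.767 by edgeR. Reads of this gene may be shared with near-identical class II genes, and polymorphic alleles may align unequally.

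The enzymes included the study gene with the lowest p. ALDH5A1 (ENSBTAG00000021902), which oxidizes succinate semialdehyde in the breakdown of GABA, had 48.3, 70.9 and 54.3 CPM in SL253804, SL253808 and SL253811. It had 22.03, 21.4, 22.8 and 23.0 CPM in 4 heifers of station A and 49.2 CPM in the NB-pregnant heifer SL220769, which alone overlapped with station B. The log2FC was 1.08 (SE 0.26, 2.12-fold), with an unadjusted p of 0.00185 and an adjusted p of 0.316 by edgeR. Without SL220769 it was 1.38 and the adjusted p was 0.0237 by edgeR. UGT8 (ENSBTAG00000004574), which makes galactosylceramide, was 2.54 to 3.65 CPM in station B and 0.824 to 2.94 CPM in station A (log2FC 0.91, SE 0.39, adjusted p 0.740 by edgeR). GSTM3 (ENSBTAG00000001842), a glutathione transferase, ranged from 0.118 to 2.74 CPM within station B alone.

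ALAS2 (ENSBTAG00000013178), the first enzyme of heme synthesis in red cell precursors, TFF2 (ENSBTAG00000030814), a trefoil peptide of mucus, and TAC3 (ENSBTAG00000021807), the precursor of neurokinin B, spread widely within both stations. In station B, ALAS2 was 16.8, 4.95 and 44.3 CPM, TFF2 was 22.4, 3.77 and 69.8 CPM and TAC3 was 130, 6.13 and 226 CPM in SL253804, SL253808 and SL253811. The AI-pregnant heifer SL253808 had the lowest value of all 8 heifers for each of these genes, and SL253811 had the highest of station B. In station A, ALAS2 ran from 14.7 to 81.8 CPM, TFF2 from 3.94 to 152 CPM and TAC3 from 65.6 to 478 CPM. The NB-pregnant heifer SL220768 was the highest for ALAS2 and TFF2, and the AI-pregnant heifer SL220766 for TAC3. Their log2FC values between stations were -0.77 (SE 0.73), -0.99 (SE 1.29) and -1.08 (SE 1.02), within the spread between heifers.

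Of the microtubule genes, TTLL1 (ENSBTAG00000012030), a subunit of an enzyme that adds glutamate chains to tubulin, was 35.4, 6.72 and 43.4 CPM in station B and 46.7, 83.9, 80.8, 92.3 and 34.8 CPM in station A. Only SL220775 was not above every heifer of station B. The log2FC was -1.21 (SE 0.51, unadjusted p 0.0399 and adjusted p 0.739 by edgeR). MNS1 (ENSBTAG00000000271) and SAXO2 (ENSBTAG00000003414), both of the axoneme, had log2FC values of 0.19 (SE 0.41) and 0.38 (SE 0.39). TPPP (ENSBTAG00000047116), which promotes tubulin assembly, was 3.15 to 10.1 CPM in station B and 2.54 to 10.5 CPM in station A.

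Among the signalling and surface genes, P2RY12 (ENSBTAG00000015837), the ADP receptor of platelets, was 4.15, 4.24 and 1.66 CPM in station B and 1.58 to 10.02 CPM in station A. CNKSR3 (ENSBTAG00000012674), a scaffold protein, and ADAM20 (ENSBTAG00000038377), of a metallopeptidase family, had log2FC values of -0.45 (SE 0.38) and -0.75 (SE 0.56). PPP1R1B (ENSBTAG00000006035), an inhibitor of a protein phosphatase, was 107 ± 23.6 CPM (SD, n = 3) in station B and 118 ± 72.5 CPM (SD, n = 5) in station A, where SL220769 had 6.93 CPM and the other 4 had 118 CPM or more.

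Of the 3 genes known by locus numbers, LOC522763 (ENSBTAG00000001308) split the heifers of station A. It was 53.4, 48.2 and 39.3 CPM in SL220764, SL220768 and SL220769, 5.30 CPM in SL220766 and 0.0687 CPM in SL220775, against 4.31 to 6.48 CPM in the 3 heifers of station B. Its log2FC of -2.53 had a SE of 1.28 (adjusted p 0.788 by edgeR). LOC107131247 (ENSBTAG00000047764), annotated as similar to a multidrug transporter, was 68.5 CPM in SL253808 and 92.9 CPM in SL220766 but at most 14.9 CPM in the other heifers, so each station held 1 high heifer. LOC618633 (ENSBTAG00000040580) had 23.1 to 41.6 CPM in station B, within the 10.2 to 78.5 CPM of station A.

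**Figure D4:**
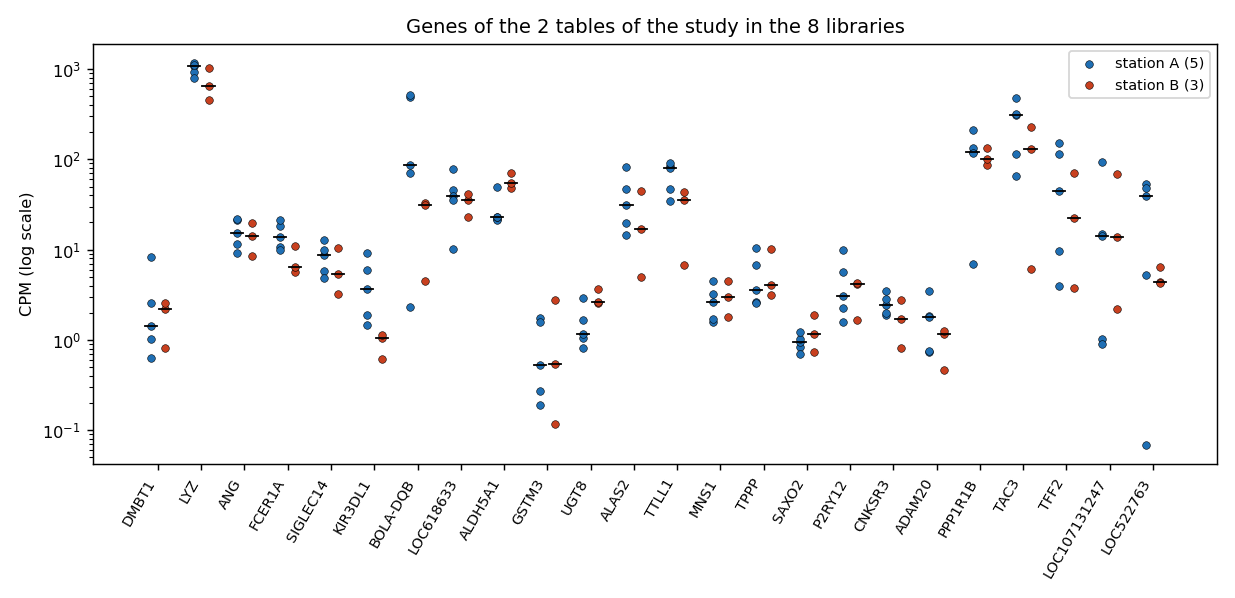
CPM (y axis, log scale) of the 24 genes named by the study in each of the 5 heifers of station A (blue) and the 3 of station B (red), with bars at the medians. The stations overlap for every gene except KIR3DL1, and BOLA-DQB, LOC522763 and TAC3 spread over more than 1 power of 10 within a station.

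Of the genes that did not pass, those with the most extreme fitted values varied strongly within a station. The most negative fitted value of all genes belonged to a gene that the rule had used, with 6.35, 7.32 and 7.49 CPM in the AI-pregnant heifers SL220764, SL220766 and SL220775. It had 0 counts in the NB-pregnant heifers SL220768 and SL220769 and 0 to 0.0489 CPM in station B, so heifers of both stations were at 0. The most positive value that did not pass, 2.98 (SE 1.01, adjusted p 0.566 by edgeR), came from a gene with 12.3, 3.53 and 0.0489 CPM in SL253804, SL253808 and SL253811 and 0.190 to 1.06 CPM in station A. There the heifers of station B lay on both sides of station A.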

How the data were processed

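Blood leukocyte mRNA of 23 heifers was sequenced as read pairs. The authors removed adapters, aligned the pairs to the bovine build UMD3.1, dropped pairs with several positions, many mismatches or duplicates, and counted pairs per Ensembl gene with HTSeq. The aligner and the strand setting are not given in the sources used here, so overlapping and antisense genes are uncertain. The deposited counts are whole numbers without normalization, and the deposited FPKM were made by the authors from the counts of retained genes (over 1 CPM in at least 6 libraries of the station) and served here only to recover gene lengths.

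CPM are counts over the library total. Genes with more than 1 CPM in 3 or more of the 8 libraries were tested with edgeR's quasi-likelihood test (TMM factors, robust dispersion, Benjamini-Hochberg adjustment over all genes tested, threshold 0.05). The study made no such comparison. Log2 fold changes are station B over station A, and standard errors are their size over the square root of F. A separate fit used the 15 other libraries. P values set the difference between stations against the spread among the heifers in the fit. The 8 compared heifers were chosen on their counts, so their spread need not be that of all heifers of a station. The method was tested on simulated counts.

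The libraries, genes and lists were chosen with earlier results of these data known. Identified genes are, in each direction, the 2 with the largest change among genes that passed without overlap, had a mean of 5 CPM or more in the higher station and had not been used by the rule. The lists of blood cell types, interferon, stress, clock, glucocorticoid, MHC, ribosomal and other pathways gave no result, since 0 identifiers matched a symbol. The symbols of the 24 study genes are those of the study. Other genes that the text describes by rank were chosen after their values were seen.

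Alternatives were no factors, RLE factors, DESeq2, limma-voom, the rule of the study, other filters, a test against 2-fold, each heifer left out, SL220765 added, AI-pregnant heifers only, 1 fit over all 23 libraries and AI pregnancy as a covariate. Models ran in R 4.3.3 with DESeq2 1.42.0, edgeR 4.0.16 and limma 3.58.1, and figures in Python 3.11.15 with matplotlib 3.10.9.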

Additional observations from a re-analysis of the deposited data

Results flagged for a closer look

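In the 5 heifers of station A, 1 value stood apart by Dixon's criterion for 3 of the 31 genes described with their values, where chance gives about 1 in 20. ALDH5A1 was 49.2 CPM in SL220769, and the next heifer had 23.0 CPM. DMBT1 was 8.20 CPM in SL220768, next to 2.59 CPM. LOC107131247 was 92.9 CPM in SL220766, next to 14.9 CPM.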

How the results depend on the processing

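The number of genes called between stations, 7, became 84 with DESeq2, 304 by the rule of the study, 12 without a filter, 4 with more than 1 CPM in all 8 libraries, 4 with more than 5 CPM in 3 or more, 1 in a test against 2-fold, 2 with SL220765 added, 66 with AI-pregnant heifers only, where 1 heifer of station B is assumed to vary like the 3 of station A, and 4 with AI pregnancy as a covariate. Over genes that the rule did not use these numbers were 71, 246, 12, 4, 4, 1, 2, 61 and 4. Leaving out 1 heifer gave 1 to 19 genes, and 1 to 12 over genes that the rule did not use. The causes were not tested, except that stricter filters test fewer genes. With no factors, RLE factors, limma-voom and 1 fit over 23 libraries 7 or 8 genes were called. Among them were all of the original 7 genes with no factors or RLE factors, 6 with limma-voom and 5 in the fit over 23 libraries. ENSBTAG00000004948 was not called with limma-voom (adjusted p 0.0672 by limma-voom) or in the fit over 23 libraries (0.197 by edgeR). In the 15 left-out heifers 10889 genes were called without SL220765 and 10991 without factors.

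Of the 24 study genes, DESeq2 put 2 past the threshold, ALDH5A1 and KIR3DL1, the latter used by the rule and so not tested by this, and leaving out 1 heifer gave 0 to 1 called gene. The sign of 9 study genes that did not pass changed. With AI pregnancy as a covariate the log2 fold change was 0.030 for ANG, 0.015 for LOC618633, -0.15 for GSTM3 and 0.19 for PPP1R1B. With 1 heifer left out it ranged from -0.71 to 0.43 for DMBT1, -0.47 to 0.11 for ANG, -0.54 to 0.041 for LOC618633, -0.17 to 0.49 for MNS1, -0.54 to 0.55 for TPPP, -0.67 to 0.11 for P2RY12, -0.44 to 0.18 for PPP1R1B and -1.58 to 1.86 for LOC107131247. The 7 called genes had the same sign in all 139 combinations of a called gene and an alternative fit that tested it. No paired analysis was possible, since each heifer gave 1 library and belonged to 1 station. Genes near 1 CPM rest on few read pairs, and 3 heifers against 5 limit what small differences could pass.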
